A study of Mus musculus with 9 samples.

Results

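The genes described here were 10 aldehyde dehydrogenases of fatty aldehyde, ethanol and amino acid metabolism, Aldh3a2, Aldh3b1, Aldh2, Aldh1b1, Aldh4a1, Aldh6a1, Aldh7a1, Aldh9a1, Aldh16a1 and Aldh18a1, out of 24421 genes counted. They were selected on their names and on their levels in these 9 libraries under both comparisons, without a threshold, so their levels and differences are given as a description. RNA was sequenced in 9 libraries of 4T1, a mouse mammary carcinoma line of the triple negative type that spreads to the lung, in 3 groups of 3 libraries. The first group was 3D spheroids, grown on a soft-agar base, without added palmitate, which received the albumin and ethanol vehicle. The second was 3D spheroids with 75 µM palmitate coupled to albumin added to the serum-containing medium, and the third was 2D monolayers with the same 75 µM palmitate. All were kept for 5 days, and a 2D culture without added palmitate was not analysed here, which leaves palmitate in monolayers untested. Both comparisons, 3D against 2D in palmitate and palmitate against no palmitate in 3D, share the 3 libraries of 3D spheroids with palmitate. All 9 libraries come from a single cell line, and the labels do not say whether the 3 libraries of a group were separate cultures (the study's methods speak of biological replicates in general, not of these libraries), so p-values measure the spread between these libraries, which may be technical.

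Aldehyde dehydrogenases oxidise reactive aldehydes to carboxylic acids with NAD+ or NADP+, and the family divides by substrate and by compartment. Aldh3a2 acts on long-chain fatty aldehydes in the endoplasmic reticulum and peroxisomes, and Aldh2 acts on acetaldehyde in mitochondria. Several others carry out a single step in the synthesis or breakdown of an amino acid, and Aldh18a1 is named for its relatedness although it runs in the reductive direction, making pyrroline-5-carboxylate from glutamate.

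The promoters of Aldh3a2 and Aldh18a1 are shown because these were the listed genes with the largest differences between 3D and 2D in each direction. The sequences are the 250 bases before the RefSeq start of each gene in GRCm38.p6, both read from the minus strand, at chr11:61267187-61267436 for Aldh3a2 and chr19:40588464-40588713 for Aldh18a1. Capitals mark GCGTG, the core letters bound by the aryl hydrocarbon receptor, on either strand (CACGC on the other), and CACGTG, an E-box that reads the same on both strands and is bound by Myc family factors among others.
Aldh3a2 promoter: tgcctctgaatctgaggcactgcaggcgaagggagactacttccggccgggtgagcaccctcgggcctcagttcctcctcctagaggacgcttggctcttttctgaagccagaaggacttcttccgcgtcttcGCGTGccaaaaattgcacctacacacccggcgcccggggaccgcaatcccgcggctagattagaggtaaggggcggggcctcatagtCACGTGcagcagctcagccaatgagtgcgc
Aldh18a1 promoter: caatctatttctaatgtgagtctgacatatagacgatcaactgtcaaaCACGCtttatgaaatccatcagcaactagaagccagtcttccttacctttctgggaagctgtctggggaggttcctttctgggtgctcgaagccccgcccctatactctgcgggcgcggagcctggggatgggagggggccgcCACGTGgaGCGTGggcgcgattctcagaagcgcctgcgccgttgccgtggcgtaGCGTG
The Aldh3a2 window held GCGTG 1 time and CACGTG 1 time, the latter starting 30 bases before the RefSeq start. The GENCODE M21 start of the coding transcripts of Aldh3a2 is at 61267185, next to the window, but 2 transcripts without coding sequence start further upstream, at up to 61267464, and have exon bases in it, so the window lies within the gene as GENCODE bounds it. The Aldh18a1 window held GCGTG 3 times and CACGTG 1 time, starting 59 bases before the RefSeq start, and in neither window did the motifs overlap. Windows from the RefSeq promoter table were searched for 8 of the listed genes. Aldh2 and Aldh7a1 were not searched, so the counts below do not cover them. The 8 are counted by gene, and Aldh6a1 had a further window without a match, while the shares over the whole set are by promoter. Of these 8, 4 had GCGTG (Aldh9a1, Aldh4a1, Aldh3a2 and Aldh18a1) and 2 had CACGTG (Aldh3a2 and Aldh18a1), against 28.2% and 6.02% of the 32851 promoters of the table. TGACNNNGC, the core of the antioxidant response element, was present in 1 of the 8 (Aldh9a1) and in 10.2% of all promoters. The PPAR direct repeat (0.0335% of all promoters), searched as its full consensus, and TGATGNAA of ATF4 (3.45%) were in 0 of the 8. The motifs were chosen with these sequences in view, and a match is only a run of letters in the window.

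Total counts per library ranged from 6595514 to 31177756, with the lowest in the third library of 3D spheroids with palmitate. Library pairs within that group differed most from each other, with a chi-square value per gene of 16.4 to 19.7, against 3.9 to 9.3 within the other groups. The share of counts on Rn45s, a ribosomal RNA gene, was 3.14%, 5.38% and 1.81% in its 3 libraries. It was 1.77% to 2.77% in 3D without palmitate and 2.46% to 3.49% in 2D, and its part in the differences was not tested. The epithelial markers Epcam, Cdh1, Krt7, Krt8, Krt18, Krt19 and Krt14 were all expressed, and their summed level was 5077 to 5336 CPM (counts scaled by edgeR to a common library size) in 3D spheroids with palmitate, 5212 to 5277 without and 4039 to 4358 in 2D. Of the fibroblast markers, 1 of 5 was expressed (Pdgfra), Col3a1 and Lum were at 0 in all 9 libraries, and the summed level was 90.7 to 110.4 CPM in 3D and 29.6 to 31.2 CPM in 2D. Of the leukocyte, endothelial and adipocyte markers, 0 of 6, 0 of 3 and 0 of 3 passed the filter on low counts, with sums of at most 1.19, 0.579 and 0.108 CPM, and Cd3e, Adgre1 and Lep were at 0 throughout. The part of these markers in the differences below was not tested. In RNA from whole cultures, more RNA per cell and more cells of a kind cannot be told apart.

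In 3D spheroids with palmitate, compared with 2D monolayers with palmitate, Aldh3a2 was 4.19-fold higher, Aldh6a1 was 2.37-fold higher, and Aldh4a1, Aldh2 and Aldh3b1 were 1.61, 1.5 and 1.24-fold higher. Aldh18a1 was 2.59-fold lower. Aldh7a1, Aldh9a1, Aldh16a1 and the low-level Aldh1b1 were not called. All 10 genes passed the filter on low counts, which kept 12575 genes, and a gene was called at a Benjamini-Hochberg adjusted p under 0.05 by edgeR's quasi-likelihood test over all of them. In this comparison 6 of the 10 were called, 5 higher and 1 lower, where 68.3% of all genes tested were called, 34.5% higher and 33.9% lower. The groups did not overlap for the same 6 of 10 genes, and for 69.4% of all genes. The median log2 difference was 0.16 for the listed genes and 0.01 for all genes. With trends of GC content and length removed from each library, 7 were called, 5 higher and 2 lower, so the higher share of the calls went from 83.3% to 71.4%, since Aldh16a1 was then called lower.

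When palmitate was added to 3D spheroids, Aldh9a1 and Aldh18a1 were 1.29-fold and 1.23-fold higher, and none of the other 8 listed genes was called. Aldh3a2 differed by -0.10 on the log2 scale, with a 95% interval of -0.23 to 0.02. In this comparison 2.19% of all genes were called, 1.38% higher and 0.811% lower. Groups did not overlap for 3 of the 10 (Aldh7a1, Aldh9a1 and Aldh18a1) and for 18.6% of all genes. The median log2 difference was -0.00092 for the listed genes and 0.01 for all genes. Both calls were fragile: the number of listed genes called was 0 when any single library without palmitate or the second library with palmitate was left out, 1 without the first library with palmitate or any single 2D library, and 3 without the third library with palmitate, where 14.9% of all genes were called. For this comparison 3.45% of all genes were called by DESeq2 and 17.3% had an unadjusted p under 0.05. The number of listed genes called was 1 with the replicate number as a block, 1 without composition scaling, and 0 when the 2D libraries were kept out of the fit.

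**Figure D1:**
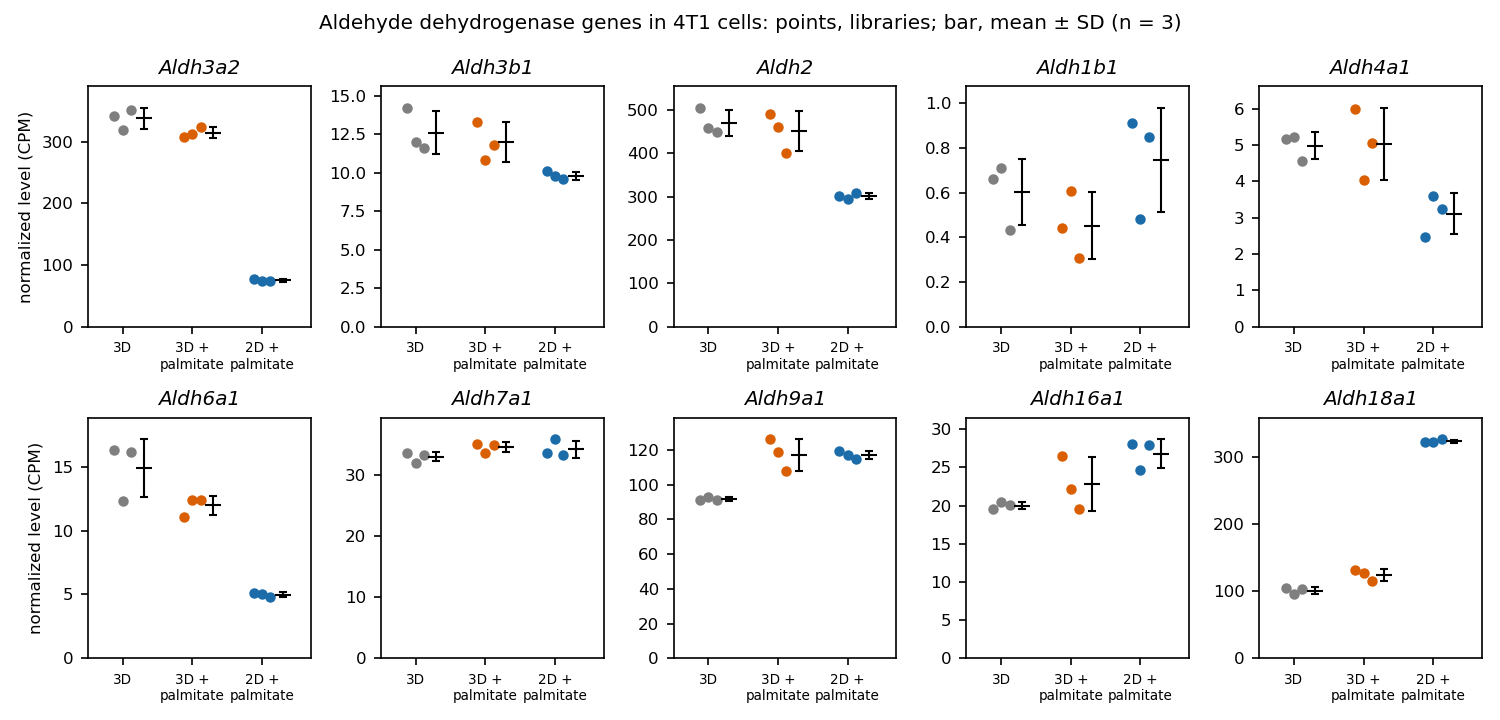
Normalized level (CPM, linear axis from 0, own scale per gene) of the 10 aldehyde dehydrogenase genes in each library of 3D spheroids, 3D spheroids with palmitate and 2D monolayers with palmitate; points are libraries, and the bar beside them is the mean with its SD (n = 3). Aldh3a2 lies between 307 and 324 CPM in 3D with palmitate and between 74 and 77.6 CPM in 2D, and Aldh18a1 is the only gene of the 10 for which the 2D libraries lie far above both 3D groups.

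Aldh3a2, the fatty aldehyde dehydrogenase that is mutated in Sjögren-Larsson syndrome, lies at chr11:61223417-61267464 (GRCm38, minus strand), with 13 merged exon blocks, where the end on the start side is that of a transcript without coding sequence. Its level was 342, 319 and 352 CPM in 3D spheroids without palmitate, 307, 313 and 324 CPM with palmitate, and 77.6, 74 and 74.1 CPM in 2D monolayers. Each of the 6 spheroid libraries was above each of the 3 monolayer libraries by a wide margin, while the 2 spheroid groups overlapped. Between 3D and 2D in palmitate the log2 difference was 2.07 (SE 0.0631, 95% interval 1.93 to 2.20), and it lay between 2.05 and 2.08 when any single library was left out. With 938 to 8348 counts per library, its coefficient of variation was 2.67% in 3D with palmitate and 2.71% in 2D.

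Aldh3b1, at chr19:3913491-3929808 (minus strand), oxidises medium- and long-chain aldehydes, including products of lipid peroxidation. It was measured at 14.2, 12 and 11.6 CPM in spheroids without palmitate, 13.3, 10.8 and 11.8 CPM with palmitate, and 10.1, 9.77 and 9.58 CPM in 2D. The monolayer libraries were the lowest, but the gap to the lowest spheroid library was small. The log2 difference between 3D and 2D was 0.31 (SE 0.115), with an adjusted p of 0.0259 by edgeR. The call was lost without the first library of 3D with palmitate (0.19, adjusted p = 0.217), without the second (0.30, adjusted p = 0.0702) or the third (0.29, adjusted p = 0.0696) 2D library, and with DESeq2 (0.30, adjusted p = 0.0641). With palmitate in 3D it differed by -0.06 (95% interval -0.30 to 0.18).

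Among 10 further genes that make or use fatty aldehydes and ether lipids, 9 were tested. In 3D against 2D, 3 rose (Far1, Agps and Sgpl1) and 2 fell (Far2 and Gnpat), with a median of -0.13, where 34.5% of all genes were called higher and 33.9% lower. Far1, which reduces fatty acyl-CoA to fatty alcohol for ether lipid synthesis, was 245 CPM in 3D with palmitate and 164 CPM in 2D (log2 difference 0.57, SE 0.0943). Its relative Far2 went the other way, at 2.18 against 4.92 CPM (-1.28, SE 0.203). When palmitate was added in 3D, 0 of the 9 were called by edgeR, 1 had an unadjusted p under 0.05, and 0 were called by DESeq2. The smallest p in that comparison belonged to Far1, at 290.2 CPM without and 245 CPM with palmitate (-0.25, adjusted p = 0.182), followed by Far2 (-0.24, adjusted p = 0.65). Without the third library with palmitate, Far1 was called (-0.37, adjusted p = 0.00285).

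Of the 11 other aldehyde dehydrogenases of the mouse genome, 3 were expressed and 8 (Aldh1a1, Aldh1a2, Aldh1a3, Aldh1a7, Aldh1l1, Aldh3b2, Aldh3b3 and Aldh8a1) had at most 7 counts in any library. Aldh3a1, of the same subfamily as Aldh3a2 and a cytosolic enzyme of aromatic and medium-chain aldehydes, was measured at 599, 470.0 and 472 CPM in spheroids without palmitate, 591, 603 and 459 CPM with palmitate, and 3.64, 2.47 and 2.9 CPM in 2D. It was therefore abundant in every spheroid library and near the low end in every monolayer library. The log2 difference between 3D and 2D was 7.59 (SE 0.169), far above the 2.07 of Aldh3a2. Aldh1l2, the mitochondrial formyltetrahydrofolate dehydrogenase, and Aldh5a1, the succinate semialdehyde dehydrogenase, fell in 3D by 0.97 and 0.58 on the log2 scale (SE 0.131 and 0.0942). For palmitate in 3D, 0 of these 3 were called by edgeR or DESeq2 and 0 passed an unadjusted 0.05. DESeq2, and edgeR with every gene kept, also called Aldh3b2 between 3D and 2D, on at most 7 counts per library.

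Aldh2, at chr5:121566027-121593824 (minus strand), is the mitochondrial enzyme that clears acetaldehyde formed from ethanol and also handles 4-hydroxynonenal. Its level was 504, 458 and 448 CPM without palmitate, 490.4, 459.7 and 401 CPM with palmitate, and 300.4, 295 and 307 CPM in 2D. No monolayer library reached the lowest spheroid library. The log2 difference between 3D and 2D was 0.59 (SE 0.075, 95% interval 0.42 to 0.75), and with palmitate in 3D it was -0.06 (95% interval -0.22 to 0.10).

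Aldh1b1, at chr4:45799022-45804604 (plus strand), encodes a second mitochondrial acetaldehyde dehydrogenase and was the least abundant gene of the list, with 2 to 19 counts per library. It was listed at 0.661, 0.711 and 0.434 CPM in spheroids without palmitate, 0.442, 0.608 and 0.306 CPM with palmitate, and 0.91, 0.481 and 0.847 CPM in 2D. The 3 groups overlapped. The 95% intervals were wide, from -1.39 to 0.28 on the log2 scale for 3D against 2D and from -1.23 to 0.53 for palmitate in 3D, so a difference of this size was not detectable at this depth.

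Of 17 genes of alcohol oxidation, aldehyde reduction and acetate activation, 12 were tested. In 3D against 2D, 7 rose (Adh7, Adhfe1, Akr1a1, Cat, Cbr1, Dhrs4 and Esd) and 3 fell (Acss2, Adh1 and Adh5), with a median of 0.31. Over all genes tested, 34.5% were called higher and 33.9% lower, so these counts are given as a description. Cat, the peroxisomal catalase, which can also oxidise ethanol, rose from 94.6 CPM in 2D to 159 CPM in 3D (log2 difference 0.74, SE 0.0587). Adh5, the alcohol dehydrogenase that detoxifies formaldehyde with glutathione, fell by 0.67 (SE 0.0605), from 170.3 CPM in 2D to 107 CPM in 3D. Between spheroids with and without palmitate, 0 of the 12 were called by edgeR, 4 had an unadjusted p under 0.05, and 1 was called by DESeq2. The smallest p values were those of Adh7 (0.30, adjusted p = 0.0738) and Esd (0.23, adjusted p = 0.0964). Without the third library with palmitate, where 14.9% of all genes were called, 5 of the 12 were called, all higher, and nothing particular to the list is read from that count. Both of these genes were among them (0.28, adjusted p = 0.0272, and 0.24, adjusted p = 0.0217).

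Aldh18a1, at chr19:40550257-40588463 (minus strand), is pyrroline-5-carboxylate synthase, the first step from glutamate to proline and ornithine. Its level was 105, 96 and 103 CPM in spheroids without palmitate, 132, 128 and 115 CPM with palmitate, and 323, 323 and 327 CPM in 2D. The 3 groups were separate, with the monolayers highest. Between 3D and 2D the log2 difference was -1.37 (SE 0.0665, 95% interval -1.51 to -1.23), and it lay between -1.41 and -1.32 when any single library was left out. Within 3D, palmitate was accompanied by a higher level in all 3 libraries, and the log2 difference was 0.30 (SE 0.0669, adjusted p = 0.0329 by edgeR). That call was lost in 8 of the 9 fits that left out a library (0.26 to 0.33, adjusted p up to 0.161), all but the one without the third library with palmitate (0.36, adjusted p = 0.00111). It was lost with the replicate number as a block (0.30, adjusted p = 0.0846), with library size alone for scaling (0.28, adjusted p = 0.0532) and with the 2D libraries kept out of the fit (0.30, adjusted p = 0.114), while DESeq2 gave 0.30 with an adjusted p of 0.00148.

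Aldh4a1, at chr4:139622866-139649690 (plus strand), catalyses the opposite end of the pathway, the oxidation of pyrroline-5-carboxylate to glutamate in proline breakdown. It was a low-level gene, with 30 to 163 counts per library, and measured 5.15, 5.23 and 4.56 CPM in spheroids without palmitate, 6, 4.03 and 5.05 CPM with palmitate, and 2.48, 3.59 and 3.25 CPM in 2D. Every spheroid library exceeded every monolayer library. The log2 difference between 3D and 2D was 0.68 (SE 0.177), opposite in sign to that of Aldh18a1, and with palmitate in 3D it was 0.06 (95% interval -0.31 to 0.42). Without the first library of 3D with palmitate the first difference was 0.44 and not called (adjusted p = 0.069 by edgeR). In GENCODE M21, 1595 exon bases of Aldh4a1, 32.5% of the total, are shared with Gm21969 on the same strand. Gm21969 was not among the genes counted under that name, so how reads there were assigned is not known.

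Of 9 further proline, ornithine and glutamate genes, 8 were tested, and in 3D against 2D 0 rose and 5 fell, among them Prodh, Pycr1 and Glul, with a median of -0.30. The called share was 62.5%, beside 68.3% of all genes tested, of which 33.9% were lower and 34.5% higher. Nothing particular to the list is read from its counts. Prodh, which opens proline breakdown and makes the substrate of Aldh4a1, fell by 1.24 (SE 0.0843), from 39.3 CPM in 2D to 16.6 CPM in 3D. Pycr1, which turns the product of Aldh18a1 into proline, fell by 1.08 (SE 0.132), from 12.7 to 5.83 CPM. Glul, glutamine synthetase, fell by 1.34 (SE 0.0926), from 39.7 to 16.1 CPM. Within the proline genes named here, Aldh18a1, Pycr1 and Prodh were thus lower in 3D and Aldh4a1 was higher. With palmitate in 3D, 0 of the 8 were called by edgeR or by DESeq2 and 3 had an unadjusted p under 0.05. Pycr1 (0.43, adjusted p = 0.162) and Prodh (0.26, adjusted p = 0.165) had the smallest p values, and 2 of the 8 were called without the third library with palmitate, beside 14.9% of all genes.

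**Figure D2:**
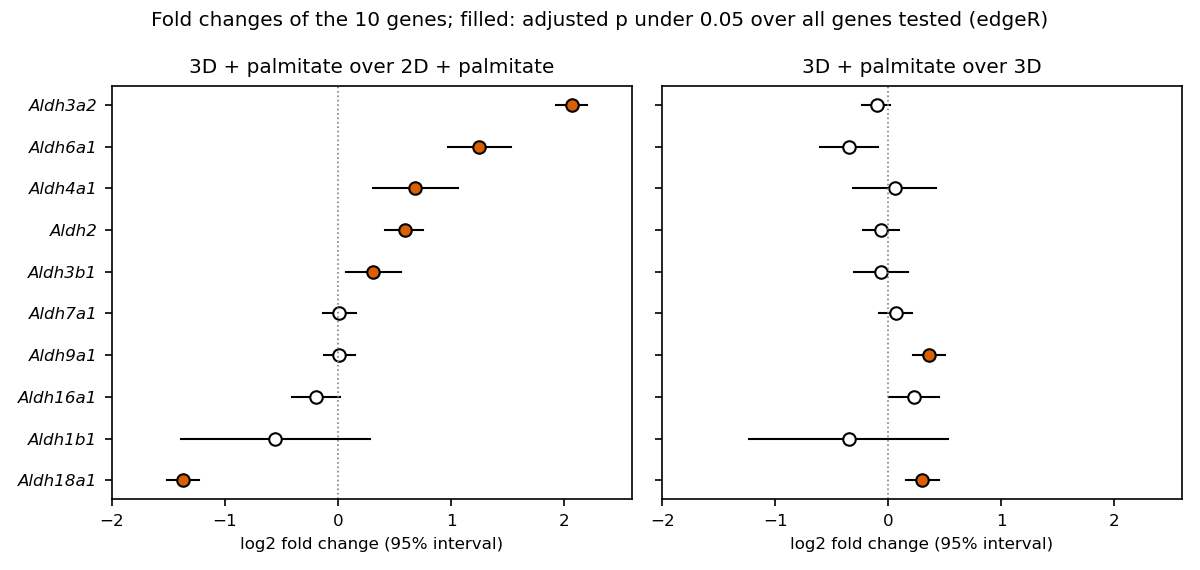
Log2 difference with its 95% interval for the 10 genes in both comparisons, from edgeR's fit to all 9 libraries; filled points were called at an adjusted p under 0.05, and the dotted line marks 0. Aldh3a2 (2.07) and Aldh18a1 (-1.37) stand at the ends for 3D against 2D in palmitate, and all values for palmitate in 3D lie between -0.35 and 0.36.

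Aldh6a1, at chr12:84430717-84451004 (minus strand), is the mitochondrial methylmalonate semialdehyde dehydrogenase of valine and thymine breakdown, which forms a CoA ester. It was measured at 16.3, 12.3 and 16.2 CPM in spheroids without palmitate, 11.1, 12.4 and 12.4 CPM with palmitate, and 5.13, 5.06 and 4.77 CPM in 2D. All spheroid libraries were far above the monolayers. The log2 difference between 3D and 2D was 1.25 (SE 0.132, 95% interval 0.97 to 1.53), and it lay between 1.21 and 1.31 with any single library left out. With palmitate in 3D it was -0.35 (95% interval -0.60 to -0.09, adjusted p = 0.146 by edgeR), and the 2 groups overlapped. The annotation has 1078 of its exon bases, 18.6%, shared with Bbof1 on the other strand, and the strand setting of the counting is not given in the sources used here. Bbof1, counted as Ccdc176, had a mean of 1.06 CPM in spheroids without palmitate, 1.07 with palmitate and 1.35 in 2D.

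Of 17 other genes of valine, propionate and pyrimidine breakdown, 14 were tested, and in 3D against 2D 2 rose (Bckdha and Dpys) and 9 fell, with a median of -0.38. Hibadh, which makes the substrate of Aldh6a1 in valine breakdown, fell by 0.57 (SE 0.0637), from 61.2 CPM in 2D to 41.3 CPM in 3D. Dld, the lipoamide dehydrogenase shared by the branched-chain keto acid and other dehydrogenase complexes, fell by 0.58 (SE 0.0726), from 228 to 154 CPM. The other 7 that fell were Acad8, Bcat2, Bckdhb, Dbt, Hibch, Mut and Pcca, a direction opposite to that of Aldh6a1. Over all genes tested, 33.9% were called lower and 34.5% higher, and nothing particular to the list is read from its counts. Added palmitate gave 0 calls among the 14 by edgeR or by DESeq2, and 4 had an unadjusted p under 0.05, the smallest p values being those of Dpys (1.01, adjusted p = 0.166) and Mut (-0.19, adjusted p = 0.195). Dpys had a mean of 0.957 CPM with and 0.446 CPM without palmitate. Its counts per library were low, at 7 to 20 in 3D with palmitate, 7 to 9 without and 3 to 9 in 2D. With at least 10 counts required in every library, Dpys was left out. Of the 12 genes then tested in 3D against 2D, 1 was called higher and 9 lower.

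Aldh7a1, at chr18:56509687-56572951 (minus strand), oxidises aminoadipate semialdehyde in lysine breakdown and betaine aldehyde in choline breakdown. Its level hardly moved between groups, at 33.5, 32 and 33.3 CPM in spheroids without palmitate, 35, 33.6 and 34.9 CPM with palmitate, and 33.5, 35.8 and 33.3 CPM in 2D. The log2 difference was 0.01 for 3D against 2D (95% interval -0.13 to 0.16) and 0.07 for palmitate in 3D (-0.08 to 0.21). The sign of the first was reversed with library size only (-0.0016), without the filter (-0.02), with GC and length trends removed (-0.08), and without the first library of 3D with palmitate or the first or the third 2D library (-0.01 each). The spheroid groups, although separate, were apart by less than 1 CPM at the nearest libraries. Of 11 further genes of lysine breakdown and betaine, only 4 were tested, of which 3 rose in 3D against 2D (Chdh, Hykk and Sardh) and 1 fell (Gcdh), with a median of 2.34. After removal of the GC and length trend, the 3 higher calls were the only ones, so none of the calls was then lower. The median rested on genes low in 2D, where Chdh had 7 to 20 and Sardh 4 to 15 counts per library. With at least 10 counts required in every library, 2 genes were left, Hykk higher and Gcdh lower, with a median of 0.44. Over all genes tested, 34.5% were called higher and 33.9% lower, and nothing particular to the list is read from its counts.

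Chdh, the choline dehydrogenase that makes the betaine aldehyde used by Aldh7a1, was 11.6, 13 and 11.4 CPM in spheroids without palmitate, 7.8, 9.12 and 7.04 CPM with palmitate, and 0.579, 0.641 and 0.802 CPM in 2D. It was the only gene of the 53 tested pathway genes that was called in both comparisons. It rose by 3.55 on the log2 scale in 3D against 2D (SE 0.181) and fell by 0.57 with palmitate in 3D (SE 0.119, adjusted p = 0.0259 by edgeR). The second call was lost without any single library of 3D without palmitate or without the first library with palmitate (-0.60 to -0.52, adjusted p up to 0.112), with the replicate block (-0.58, adjusted p = 0.0518), and with the 2D libraries kept out (-0.58, adjusted p = 0.0678). Sardh, the sarcosine dehydrogenase further down the same route, was 4.62 CPM in 3D with palmitate and 0.36 CPM in 2D (3.60, SE 0.247). Between the spheroid groups, Gcdh, of the glutaryl-CoA step of lysine breakdown, differed by 0.05 (adjusted p = 0.796).

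Aldh9a1, at chr1:167349991-167368532 (plus strand), oxidises trimethylaminobutyraldehyde in carnitine synthesis and aminobutyraldehyde from polyamines. Its level was 91.4, 93.1 and 91 CPM in spheroids without palmitate, 126, 119 and 108 CPM with palmitate, and 119.6, 117 and 115 CPM in 2D. The spheroids without palmitate were the low group, and the 3D and 2D groups with palmitate overlapped. With palmitate in 3D the log2 difference was 0.36 (SE 0.0649, 95% interval 0.22 to 0.50, adjusted p = 0.0108 by edgeR), and for 3D against 2D it was 0.01 (-0.12 to 0.15). The first call was lost without the first (0.36, adjusted p = 0.0592), the second (0.37, adjusted p = 0.0541) or the third (0.35, adjusted p = 0.0708) library without palmitate, without the second library with palmitate (0.35, adjusted p = 0.0694), and with the 2D libraries kept out of the fit (0.35, adjusted p = 0.0583). It held in the other 5 fits that left out a library, with the replicate block (0.36, adjusted p = 0.0339) and with DESeq2 (0.36, adjusted p = 7.02e-05).

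Of 10 further genes of carnitine synthesis and uptake, monoamines and polyamines, 6 were tested. In 3D against 2D, 1 rose (Smox) and 3 fell (Maoa, Paox and Sat1), with a median of -0.32, where 34.5% of all genes were called higher and 33.9% lower. Smox, spermine oxidase, was 259 CPM in 3D with palmitate and 72.5 CPM in 2D (1.84, SE 0.0864). Sat1, which acetylates spermidine and spermine for their breakdown, fell by 0.65 (SE 0.0655), from 73 CPM in 2D to 46.7 CPM in 3D. For palmitate in 3D, 0 of the 6 were called by edgeR, 2 had an unadjusted p under 0.05 and 1 was called by DESeq2. Odc1, ornithine decarboxylase, had the smallest p (0.35, adjusted p = 0.0571), followed by Smox (0.28, adjusted p = 0.0943). Without the third library with palmitate 2 were called, beside 14.9% of all genes, Odc1 (0.29, adjusted p = 0.0251) and Smox (0.38, adjusted p = 0.000962).

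Aldh16a1, at chr7:45140684-45154584 (minus strand), is a family member whose substrate is not well established. It was 19.5, 20.5 and 20.1 CPM in spheroids without palmitate, 26.5, 22.2 and 19.6 CPM with palmitate, and 28, 24.7 and 27.9 CPM in 2D. The spheroids with palmitate overlapped both other groups, with the first library high and the third low. The log2 difference was -0.19 for 3D against 2D (SE 0.1, adjusted p = 0.104 by edgeR) and 0.23 for palmitate in 3D (SE 0.103, adjusted p = 0.276). Neither was called, but the first was without the first library with palmitate (-0.34, adjusted p = 0.00645), and the second was without the third (0.30, adjusted p = 0.0388).

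**Figure D3:**
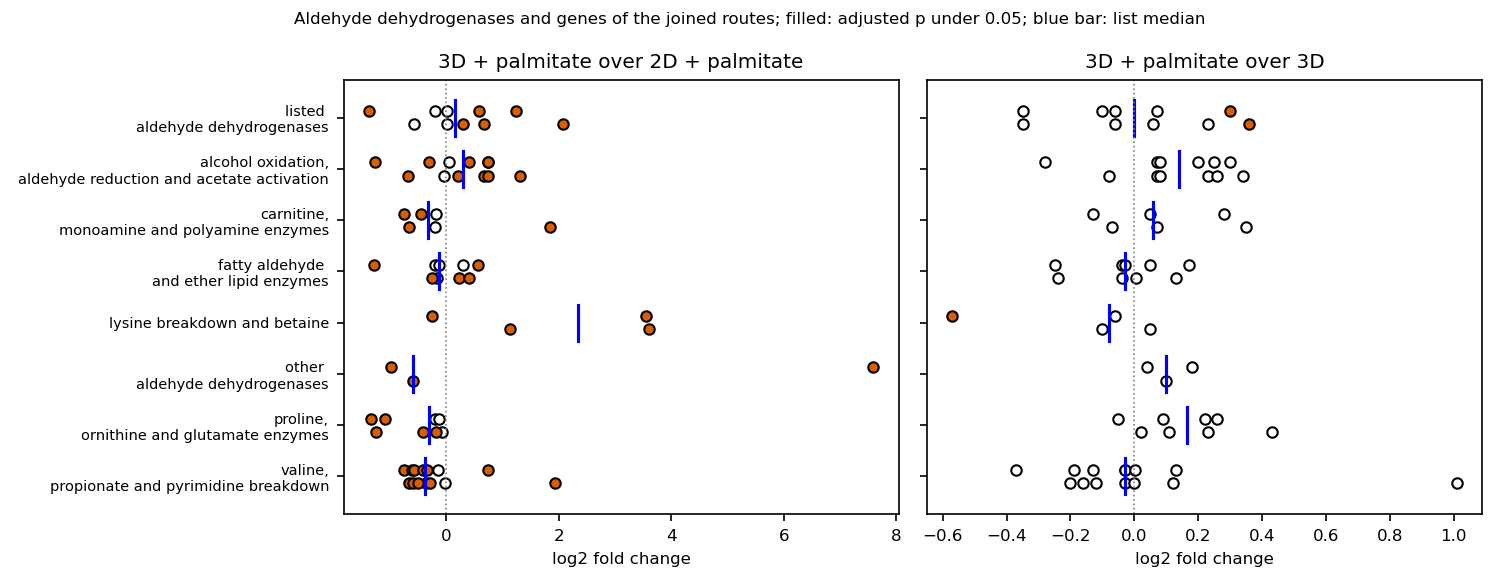
Log2 fold changes of the 10 listed genes, the other aldehyde dehydrogenases and the 6 pathway lists, a row per list and a point per tested gene, for 3D over 2D in palmitate (left) and palmitate in 3D (right, narrower axis); filled points were called at an adjusted p under 0.05, blue bars are list medians and the dotted line marks 0. On the left 16 of the 53 pathway genes were called higher and 23 lower, and on the right Chdh was the only pathway gene called, beside Aldh9a1 and Aldh18a1.

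Over the 6 pathway lists, 53 of 74 genes were tested. In 3D against 2D, 39 of them were called, 16 higher and 23 lower, or 73.6%, beside the 68.3% of all genes. Among the spheroids, 1 was called, or 1.89%, beside 2.19% of all genes. The lists were written with earlier results of these data known, and nothing particular to them was read from these shares.

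Levels were compared between genes per kilobase of the longest transcript. In spheroids without palmitate the order was Aldh2 (122 ± 7.75 CPM per kb, SD, n = 3), Aldh3a2 (109 ± 5.49), Aldh9a1 (32.4 ± 0.395), Aldh18a1 (28.8 ± 1.37), Aldh7a1 (7.98 ± 0.194), Aldh3b1 (6.56 ± 0.73), Aldh16a1 (4.91 ± 0.127), Aldh6a1 (4.3 ± 0.648), Aldh4a1 (1.2 ± 0.0891) and Aldh1b1 (0.262 ± 0.0643). No neighbours in that order overlapped. The order was the same in spheroids with palmitate, where Aldh2 (116 ± 11.8) overlapped with Aldh3a2 (102 ± 2.72) and Aldh3b1 (6.22 ± 0.664) with Aldh16a1 (5.59 ± 0.86). In 2D monolayers Aldh18a1 came first (91.9 ± 0.717), then Aldh2 (77.8 ± 1.58), Aldh9a1 (41.2 ± 0.887), Aldh3a2 (24.3 ± 0.66), Aldh7a1 (8.28 ± 0.335), Aldh16a1 (6.59 ± 0.457), Aldh3b1 (5.1 ± 0.134), Aldh6a1 (1.44 ± 0.0552), Aldh4a1 (0.75 ± 0.137) and Aldh1b1 (0.324 ± 0.101), with no overlap between neighbours. Aldh3a2 thus stood at place 2 in both spheroid groups and place 4 in monolayers, and Aldh18a1 at places 4 and 1.

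**Figure D4:**
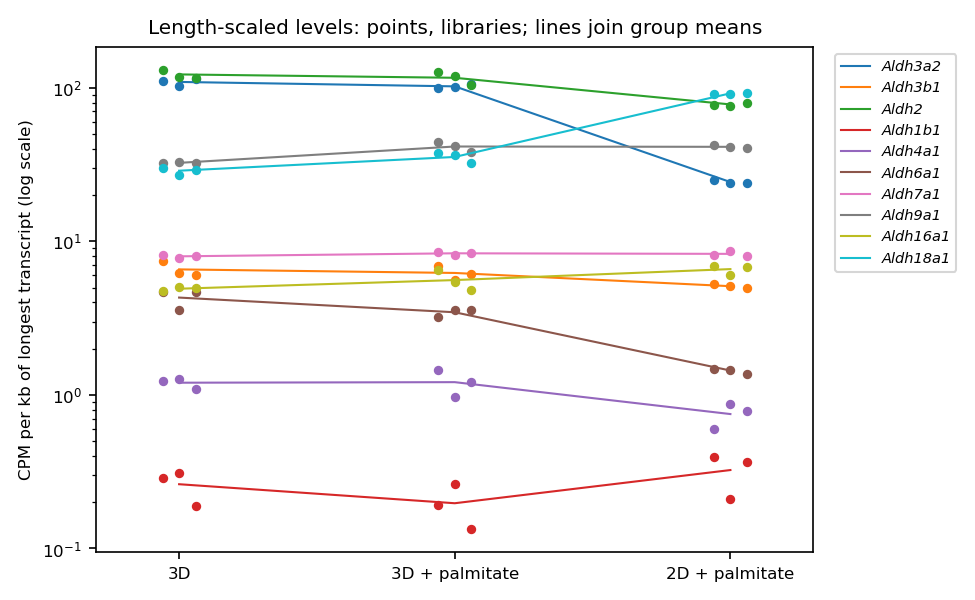
Level of the 10 genes per kilobase of the longest transcript (CPM per kb, log axis) in the 3 groups; points are libraries (3 per group) and lines join group means. From 3D with palmitate to 2D, Aldh3a2 goes from 102 to 24.3 CPM per kb and Aldh18a1 from 35.4 to 91.9 CPM per kb.

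The sum of the 10 levels was 317 CPM per kb in spheroids without palmitate, 320 with palmitate and 258 in 2D. Aldh3a2 made up 34.5% of that sum in spheroids without palmitate, 31.9% with palmitate and 9.44% in monolayers. Aldh18a1 made up 9.06%, 11% and 35.7%, and Aldh2 made up 38.3%, 36.3% and 30.2%. With merged exon lengths in place of the longest transcript, the shares of Aldh3a2 were 26.9%, 24.5% and 6.55% and those of Aldh18a1 were 11.1%, 13.4% and 39%, and the order of the genes was the same except that Aldh3b1 (4.8 CPM per kb) came before Aldh16a1 (4.78) in 2D.

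The 5 genes whose centred log2 CPM over the 9 libraries lay nearest to that of Aldh3a2, by Euclidean distance, were Angptl2 (0.147), Il6ra (0.165), Dusp6 (0.173), Fut8 (0.198) and Mitf (0.203). Angptl2 encodes a secreted angiopoietin-like protein, Il6ra the interleukin 6 receptor, Dusp6 a phosphatase of ERK, Fut8 a fucosyltransferase and Mitf a transcription factor. Pearson's r with Aldh3a2 was 0.998 to 0.999, as a description over 9 libraries that fall into a 3D and a 2D cluster. Since the 5 were chosen by distance over these same libraries, similar log2 differences follow from the choice. These were 1.98, 2.04, 1.96, 1.99 and 2.00 for 3D against 2D and -0.15, -0.18, -0.11, -0.10 and -0.17 for palmitate in 3D, against 2.07 and -0.10 for Aldh3a2. None of the other 9 aldehyde dehydrogenases was among the 5 genes.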

How the data were processed

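RNA was measured in 9 poly(A) libraries of 4T1 cells made with a stranded kit. The authors cleaned single-end reads with fastq-mcf, checked them with FastQC 0.11.9, aligned them to GRCm38 with HISAT2 2.1.0 and deposited raw read counts per gene from HTSeq-count, unnormalized. The annotation release and strand setting are not given in the sources used here. Every column of the table was used. Groups and replicate numbers came from the labels.

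The analysis used edgeR 4.0.16 under R 4.3.3, with filterByExpr over the 3 groups, TMM scaling, and a quasi-likelihood fit with group as the only term to all 9 libraries. P-values were adjusted over 12575 genes by Benjamini and Hochberg, and genes under 0.05 were called. Standard errors were obtained as the absolute log2 difference over the root of F, and intervals are at 95%, unadjusted. CPM are counts scaled to TMM-adjusted library size, and log2 CPM for distances used a prior count of 2. Of 24421 genes, 23384 matched GENCODE M21 by symbol and 651 by synonym, and 24025 had a length.

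The listed genes, pathway lists, markers and motifs were chosen with earlier results of these data known. Named were all 10 genes, the other aldehyde dehydrogenases that passed the filter, the 2 genes with the smallest p per pathway list and comparison (Pycr1 in 3D against 2D was named beside its other value), and the 5 genes nearest to Aldh3a2. Alternatives were RLE scaling, library size only, no filter, at least 10 counts in every library, the 2 groups alone, the replicate block, DESeq2 1.42.0, removal of GC and length trends (splines with 4 degrees of freedom), and each library left out. On simulated counts for 3D against 2D, over 12419 genes, edgeR recovered 90 of 100 genes changed by 1 and 74 of 100 changed by 0.5 on the log2 scale, with 10 false calls. For palmitate in 3D, over 12394 genes, it recovered 87 and 75, with 8 false calls. Only those few genes were changed in each simulation, whereas 68.3% of all genes were called between 3D and 2D in the data. The rates therefore do not carry over to that comparison. The simulated spread was the one estimated between these libraries, which may not include variation between separate cultures.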

Additional observations from a re-analysis of the deposited data

How the results depend on the processing

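For 3D against 2D, Aldh3a2, Aldh6a1, Aldh2 and Aldh18a1 kept their direction and call under every alternative run. With GC and length trends removed Aldh16a1 was called (-0.28, adjusted p = 0.00422), with DESeq2 Aldh3b1 was not (0.30, adjusted p = 0.0641), and with at least 10 counts in every library 2 lysine and betaine genes were left to call. Near-zero values changed sign: Aldh7a1 to -0.0016 with library size only, -0.02 without the filter and -0.08 with trends removed, Aldh9a1 to -0.01 without the filter, and, for palmitate in 3D, Gcdh to -0.00014 with trends removed. For palmitate in 3D, the 2 calls among the listed genes became 1 with library size only, 1 with the replicate block and 0 with the 2 groups alone. Aldh18a1 was not called with library size only (0.28), the block (0.30) or the 2 groups (0.30), nor Aldh9a1 with the 2 groups (0.35). Over all genes the 275 calls became 617 without the filter, 111 with the block, 961 with trends removed and 77 with the 2 groups. Calls went from 0 to 1 without the filter, 3 with trends removed and 1 with DESeq2 for alcohol and aldehyde genes, to 2, 2 and 1 for carnitine and polyamine genes, and to 1 without the filter and 1 with trends removed for fatty aldehyde genes. The single lysine and betaine call became 0 with at least 10 counts, the block or the 2 groups. Same-numbered libraries did not deviate together (correlation of deviations -0.24 to 0.15, median -0.05, over 9 pairs, against a median of 0.03 over 18 other pairs). The replicate block pairs libraries by number, and the labels do not say whether same-numbered libraries were handled together.

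With each library left out in turn, the listed genes called numbered 5 to 6 for 3D against 2D and 0 to 3 for palmitate in 3D, and all genes called 7977 to 8866 and 71 to 1901, the last without the third library with palmitate, which was also the shallowest. For 3D against 2D the log2 ranges were 0.19 to 0.39 for Aldh3b1, 0.44 to 0.83 for Aldh4a1, -0.34 to -0.11 for Aldh16a1, -0.01 to 0.04 for Aldh7a1 and -0.04 to 0.07 for Aldh9a1. For palmitate in 3D they were 0.31 to 0.41 for Aldh9a1, 0.26 to 0.36 for Aldh18a1, 0.08 to 0.30 for Aldh16a1, -0.13 to 0.02 for Aldh2, -0.18 to 0.04 for Aldh3b1, -0.18 to 0.20 for Aldh4a1 and -0.04 to 0.09 for Aldh5a1. List calls in that comparison ranged from 0 to 5 for alcohol and aldehyde genes, 0 to 2 for carnitine and polyamine genes, 0 to 2 for proline genes, and 0 to 1 for fatty aldehyde, lysine and betaine, and valine genes. The causes were not tested. A lone left-over pair of libraries was assumed to vary like the other groups. Aldh1b1 had the fewest counts of the listed genes (2 to 19 per library).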
